A study of Mus musculus with 3 samples.

Results

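Gria1, Gria2, Gria3 and Gria4 encode the AMPA receptor subunits GluA1 to GluA4, and Grid1 encodes the delta receptor subunit GluD1. These 5 genes were taken by symbol from the 32285 features of the deposited count tables, without use of any measured value. All 5 passed the filter on low counts in each of the 8 comparisons described here. Nuclear RNA had been counted in 3 hippocampal samples, each from 1 Scn8aD/+ mouse that was adult and female, whose titles place them after seizure onset. The genotype is heterozygous, with 1 D allele of the sodium channel gene Scn8a, in a series titled for models of developmental and epileptic encephalopathy. All 3 mice form 1 group, each has its own batch number so that mouse and batch cannot be told apart, and control animals were not analysed here. All comparisons set one class against another within each mouse, and nothing here measures an effect of the allele.

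AMPA receptors carry most fast excitatory transmission, as tetramers whose subunit mixture sets conductance, kinetics and calcium entry. Receptors that include edited GluA2 pass little calcium, whereas those without it pass calcium and are blocked by polyamines. GluD1 binds cerebellins and neurexins across the synapse and acts in synapse organisation rather than as a conventional glutamate-gated channel. Oligodendrocyte precursors (OPC) are glia that carry functional AMPA receptors and receive synapses from neurons.

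The libraries held 4659 to 13904 barcodes and 50931257 to 140527761 unique molecular identifiers (UMIs), with a median of 8859, 1711 and 25775 UMIs per barcode in mice 1, 2 and 3. Mouse 2 was the shallowest, and 3900 of its 11756 kept nuclei stayed unnamed, against 313 of 7889 and 23 of 4393 in mice 1 and 3. Pairs of libraries shared 13 to 36 barcode sequences. Class names rest on marker genes alone and therefore carry the ending -like. Levels are CPM, the UMIs of a gene in the summed nuclei of a class scaled to the total of all genes there, with 20 nuclei as the minimum per mouse. All 10 glutamatergic marker genes had UMIs in every class. Their sum in glia-like nuclei stood at 23.4%, 59.7% and 22.1% of the glutamatergic-like level in mice 1, 2 and 3. How much of this RNA was carried over from neurons was not tested. CA1-like clusters had the astrocyte-associated gene Gpc5 among their leading genes, and a CA3-like cluster of 153, 209 and 80 nuclei was led in part by Calcrl, a marker of mossy cells, which limits those names.

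The special role of GluA2 comes from editing of a glutamine codon in the pore loop. The enzyme ADAR2 edits it in Gria2 RNA so that it is read as arginine. The coding stretch around that codon is shown for the 4 AMPA genes. The ratios to Gria2 reported further on use total RNA per gene and do not measure this editing. Each stretch has 51 bases, 5′ to 3′ on the coding strand, read from GENCODE transcripts placed on mm10, with the codon in capitals:
Gria1: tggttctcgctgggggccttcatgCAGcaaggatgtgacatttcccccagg
Gria2: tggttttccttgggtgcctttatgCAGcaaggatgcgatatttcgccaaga
Gria3: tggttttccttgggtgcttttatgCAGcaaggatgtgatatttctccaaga
Gria4: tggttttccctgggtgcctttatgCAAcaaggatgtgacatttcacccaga
The codon lies at 57243094 to 57243096 on chromosome 11 for Gria1, at 80706911 to 80706913 on chromosome 3 for Gria2, at 41610265 to 41610267 on chromosome X for Gria3 and at 4464137 to 4464139 on chromosome 9 for Gria4. It falls in coding exon sequence, in exon 11 of 16 of the transcripts used for Gria1, Gria2 and Gria3 and in exon 12 of 17 for Gria4, and each stretch runs across the following splice junction. Against Gria2, 41 bases of Gria1, 48 of Gria3 and 45 of Gria4 were identical. The genome thus encodes glutamine at this place in all 4 genes. The deposited counts hold neither editing nor flip and flop splicing, so only total RNA per gene is described.

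Gria1 encodes the subunit best known for activity-dependent insertion at hippocampal synapses (ENSMUSG00000020524, mm10 chromosome 11, 57011387 to 57330244, plus strand). Its level was 3808, 3684 and 3390 CPM in mossy-like nuclei of mice 1, 2 and 3, a mean of 3627 ± 215 (SD, n = 3), the highest of the 19 classes. Lamp5-like nuclei held 3220, 2566 and 2848 CPM and CA1-like nuclei 2807, 3207 and 2439 CPM. Granule-like nuclei, the dentate principal cells, were lower at 1710, 2001 and 2276 CPM. Vip-like interneuron nuclei held 666, 669 and 630 CPM, the lowest of the neuronal classes and below every value in Lamp5-like nuclei. Neighbours in the order of means overlapped at each of the 18 steps. Classes further apart could be free of overlap, as were mossy-like nuclei and CA3-like nuclei, the latter at 2380 to 2649 CPM.

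Gria2 (ENSMUSG00000033981, mm10 chromosome 3, 80681450 to 80802835, minus strand) had the smallest span of levels, with 3.75-fold between the highest and lowest class mean. Mossy-like nuclei held 2465, 2365 and 3147 CPM and CA3-like nuclei 2470, 2397 and 2875 CPM. OPC-like nuclei came close to pyramidal neurons, with 1739, 1852 and 2885 CPM, where CA1-like nuclei held 2097, 1937 and 2417 CPM. The Gria2 levels of Pvalb-, Sst-, Lamp5- and Cnr1-like interneuron nuclei were lower, with class means of 841 to 1100 CPM and single values of 677 to 1167 CPM. Every one of these values lay below all values of the CA1-, CA2-, CA3-, mossy- and granule-like nuclei. Vip-like nuclei, at 1221, 1335 and 1657 CPM, were higher than those 4 interneuron classes and overlapped the granule-like values.

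Gria3 (ENSMUSG00000001986, mm10 chromosome X, 41400854 to 41678601, plus strand) separated interneuron classes from each other. The level was 1477 and 1032 CPM in the Pvalb-like nuclei of mice 1 and 2, 1088 and 879 CPM in the Sst-like nuclei of mice 1 and 3, and 1050, 983 and 1069 CPM in CA1-like nuclei. Vip-like nuclei had 166, 149 and 197 CPM and Cnr1-like nuclei 110 and 129 CPM in mice 1 and 2. The highest and lowest class means differed 10.5-fold. With called doublets kept, the Cnr1-like mean of Gria3 was 243 in place of 119 CPM.

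Gria4 (ENSMUSG00000025892, mm10 chromosome 9, 4417896 to 4796234, minus strand), whose subunit gives fast receptors, had the widest span, 14.6-fold. It reached 2340 and 1369 CPM in the Pvalb-like nuclei of mice 1 and 2, and 1499 and 1420 CPM in the Sst-like nuclei of mice 1 and 3. Lamp5-like, Cajal-Retzius-like and Vip-like nuclei followed at 1263 ± 109, 1112 ± 428 and 1025 ± 23.6 CPM (SD, n = 3 each). The OPC-like mean of 732 CPM lay above the Cnr1-like mean of 669 CPM. Astrocyte-like nuclei had the lowest mean, 127 ± 94.7 CPM (SD, n = 3), next to CA1-like nuclei with 174, 117 and 111 CPM. All values of the 5 named interneuron classes, from 625 CPM upward, exceeded all values of CA1-, CA2- and CA3-like nuclei, which reached 298 CPM at most.

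Grid1 (ENSMUSG00000041078, mm10 chromosome 14, 34820108 to 35583379, plus strand) followed another order. OPC-like nuclei held 872, 705 and 961 CPM, CA2-like nuclei 911 and 761 CPM in mice 1 and 2, and Cnr1-like nuclei 761 and 846 CPM in mice 1 and 2. Subicular or cortical-like and Vip-like nuclei came next at 733 ± 94.8 and 708 ± 161 CPM (SD, n = 3 each). Granule-like nuclei, at 258, 260 and 305 CPM, and oligodendrocyte-like nuclei, at 56.0, 214 and 96.2 CPM, were near the lower end. No step between neighbours in this order was free of overlap.

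**Figure D1:**
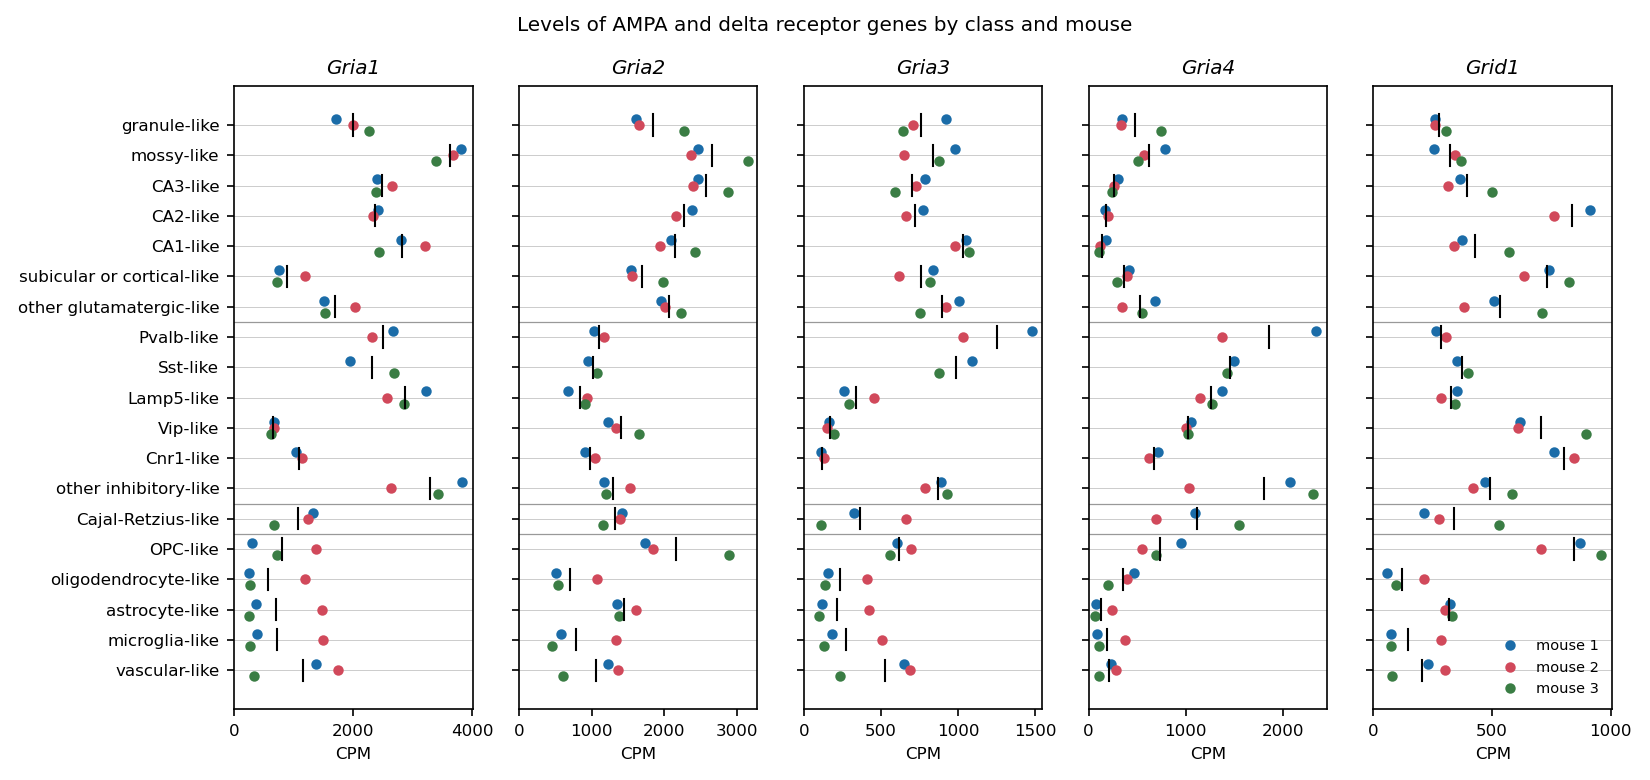
Level of each gene in CPM (x axes, linear) by class (rows) and mouse (coloured points), with the mean over mice as a black bar where at least 2 mice had 20 nuclei. Gria4 has its highest mean in Pvalb-like nuclei, with values of 2340 and 1369 CPM. Its Cajal-Retzius-like mean lies above those of Vip- and Cnr1-like nuclei. Gria3 drops to 119 CPM in Cnr1-like nuclei, and mouse 2 (red) lies above the other mice for Gria1 in all 4 glia-like classes.

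Per 100 kb of gene span the levels of different genes can be set side by side. In CA3-like nuclei Gria2 stood at 2126 ± 212 CPM per 100 kb, Gria1 at 777 ± 46.4, Gria3 at 252 ± 36.0, Gria4 at 70.3 ± 7.47 and Grid1 at 51.6 ± 12.6 (SD, n = 3 each). In Pvalb-like nuclei Gria2 was at 906 ± 77.7 CPM per 100 kb, Gria1 at 783 ± 76.9, Gria4 at 490 ± 181 and Gria3 at 452 ± 113 (n = 2 each). On this scale Gria2 was the highest of the 5 in CA3-like nuclei, while in Pvalb-like nuclei the means of Gria1 and Gria2 differed by less than the sum of their SDs. The order depends on the division by gene span: in CPM, Gria1 and Gria2 stood at 2479 and 2581 in CA3-like nuclei, and at 2497 and 1100 in Pvalb-like nuclei. The sources used here do not say if introns were included in the counting, and this scale would change if they were not.

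Inhibitory-like against glutamatergic-like nuclei compared the 2 neuronal classes of the same mice. Gria4 was higher in inhibitory-like nuclei, at 1778, 1080 and 1598 CPM against 382, 288 and 487 CPM in mice 1, 2 and 3. The groups did not overlap, and the log2 fold change was 1.83 ± 0.154 (SE; edgeR quasi-likelihood test, adjusted p = 0.00362). Gria2 pointed the other way, with 1035, 1393 and 1120 CPM against 1941, 2014 and 2378 CPM, again without overlap. Its log2 fold change of -0.96 ± 0.171 (edgeR adjusted p = 0.0176) passed the p threshold and stayed just under the minimum of 1 on the log2 scale that a call required. Gria2 was called without mouse 2 (-1.13, adjusted p = 0.00922), without a filter (-1.02), with libraries clustered alone (-1.03) and with all classes in one fit (-1.17), and its adjusted p over the alternatives was 1.44e-08 to 0.139, the latter without mouse 1. Glutamatergic marker genes stood at 20.3%, 47.5% and 19.4% of their glutamatergic-like level in the inhibitory-like nuclei of mice 1, 2 and 3, and Gria2 at 53.3%, 69.2% and 47.1%; the part of that RNA in the Gria2 level was not tested. Gria1 (0.23 ± 0.15), Gria3 (-0.23 ± 0.114) and Grid1 (-0.07 ± 0.115) had edgeR adjusted p of 0.306, 0.201 and 0.704, and Gria3 was called with all classes in one fit (-1.08, adjusted p = 1.77e-05). Of the 5 genes 1 was called, against a background of 14.7% of 16417 genes tested. The median log2 fold change was -0.07 over the 5 genes and -0.01 over all genes tested.

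The partner genes split in the same comparison. Of 15 auxiliary subunit genes 3 were called higher in inhibitory-like nuclei, the TARP genes Cacng2 (1.31 ± 0.20), Cacng4 (4.40 ± 0.458) and Cacng5 (2.11 ± 0.222), and 1 was lower, Gsg1l (-1.13 ± 0.165), whose product slows receptor recovery. Of 15 assembly, scaffold and trafficking genes 2 were called, both higher, Grip1 (2.83 ± 0.227) and Grip2 (3.59 ± 0.225), whose products bind the GluA2 tail. Among 8 tested extracellular partners Cbln4 (2.32 ± 0.285), a cerebellin, was higher, and the neuronal pentraxin genes Nptx1 (-1.36 ± 0.235), Nptx2 (-2.14 ± 0.443) and Nptxr (-1.63 ± 0.227) were lower. Among the editing enzymes Adarb1, which edits the Gria2 codon shown above, did not pass (0.40 ± 0.212, edgeR adjusted p = 0.225). Adarb2, a family member without known editing activity, was higher by 3.25 ± 0.175.

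The log2 ratio of each AMPA gene to Gria2 gives the balance within a sum of nuclei; gene length cancels when classes are compared. Gria4 to Gria2 was higher in inhibitory-like than in glutamatergic-like nuclei by 3.12, 2.44 and 2.80 in mice 1, 2 and 3. Gria1 to Gria2 was higher by 1.45, 0.60 and 1.52, and Gria3 to Gria2 by 0.69, 0.44 and 1.06. All 3 mice agreed in sign for each ratio, yet an exact two-sided sign-flip permutation test over 3 mice cannot go below 0.25, which is the value for each. Among single classes Gria4 to Gria2 ranged from -4.03 ± 0.431 in CA1-like (SD, n = 3) to 0.70 ± 0.671 in Pvalb-like nuclei (n = 2). Lamp5-like nuclei had the highest Gria1 to Gria2 ratio at 1.78 ± 0.416, and Vip-like nuclei, at -1.09 ± 0.272, had Gria2 above Gria1 on this scale in all 3 mice.

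**Figure D2:**
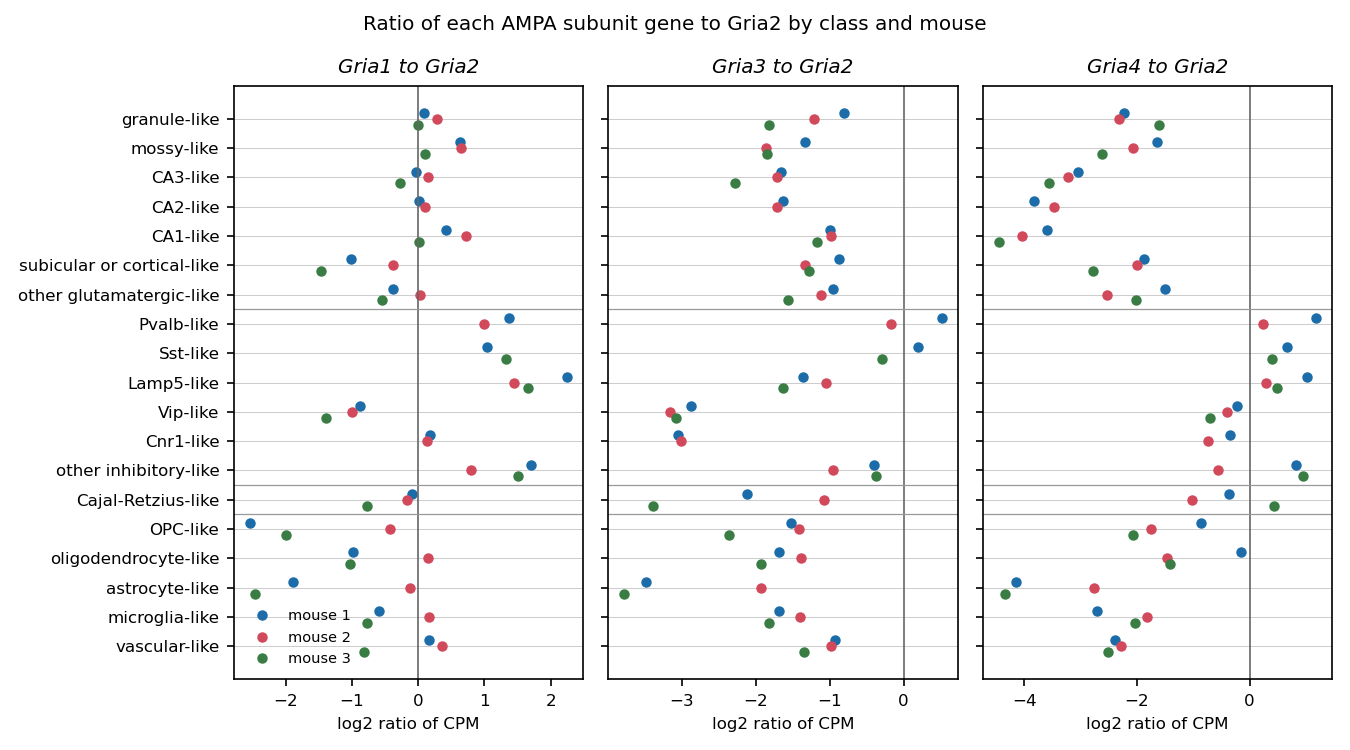
Log2 ratio of the CPM of Gria1, Gria3 and Gria4 to that of Gria2 (x axes) by class (rows) and mouse (points); the vertical line marks equal CPM. The Gria4 ratio is about -4 in CA1-like nuclei and above 0 in every mouse for Pvalb-, Sst- and Lamp5-like nuclei, and the Gria3 ratio is about -3 in Vip- and Cnr1-like nuclei.

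Among principal neurons, nuclei like dentate granule cells were set against CA1-, CA2- and CA3-like pyramidal nuclei pooled within each mouse. Gria4 was higher in granule-like nuclei, at 344, 331 and 744 CPM against 216, 199 and 183 CPM in mice 1, 2 and 3. The groups did not overlap, although mouse 3 was far above the other granule-like values, and the log2 fold change was 1.17 ± 0.275 (edgeR adjusted p = 0.0202). Over the alternatives the adjusted p ran from 0.000108 to 0.101: the call ended without mouse 2 (0.0726), without the mouse block (0.101) and, at a fold change of 0.75, without mouse 3. The summed level of the 7 inhibitory marker genes was also higher in granule-like nuclei of each mouse. It was 157, 130 and 580 CPM there and 33.6, 118 and 64.9 CPM in pyramidal nuclei. These are 2.11%, 2.74% and 7.30% against 0.454%, 2.48% and 0.817% of the inhibitory-like level. Most of the granule-like sum was Gad1, a gene of GABA synthesis, at 110, 82.4 and 442 CPM. This was 30.8%, 29.6% and 47.9% of its inhibitory-like level. Gad2 stood at 6.29, 12.4 and 73.4 CPM (1.47%, 4.43% and 7.46%). Slc32a1, the vesicular GABA transporter gene, stood at 2.13, 0.310 and 0.825 CPM (5.72%, 1.52% and 3.31%). Erbb4 was at 0.586%, 0.864% and 1.08%, Dlx1 at 1.27%, 1.45% and 1.38%, Dlx6os1 at 0.477%, 0.396% and 0.497% and Dlx6 at 2.25%, 0% and 2.21%. In granule-like nuclei Gria4 and the marker sum were both highest in mouse 3, which was not so in pyramidal nuclei. The part of inhibitory neuron RNA in the Gria4 difference was not tested. Grid1 differed by -0.64 ± 0.137 (edgeR adjusted p = 0.0140), under the fold minimum, with 258, 260 and 305 against 399, 381 and 532 CPM. Gria1 (-0.37 ± 0.162), Gria2 (-0.35 ± 0.140) and Gria3 (-0.16 ± 0.136) did not pass, at edgeR adjusted p of 0.134, 0.112 and 0.424. Of the 5 genes 1 was called, where 19.0% of 16284 genes were. The share of CA1-like among pyramidal nuclei differed between mice, with 960 of 1424, 176 of 999 and 381 of 696 nuclei.

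Among 15 auxiliary subunit genes 4 were called with higher and 2 with lower levels on the granule side, with a median log2 fold change of -0.20 over the list, -0.35 over the 5 receptor genes and -0.01 over all genes tested. Gsg1l (4.05 ± 0.406, 141 against 7.43 CPM), the TARP gene Cacng3 (1.38 ± 0.143) and Shisa9 (2.95 ± 0.327), which encodes the CKAMP44 protein of dentate synapses, were among the higher ones. Shisa7 (-1.15 ± 0.130) and Cacng5 (-3.03 ± 0.487, at 0.281 against 2.68 CPM) were the lower ones. Of 15 assembly, scaffold and trafficking genes the scaffold gene Dlg1 alone was called (1.06 ± 0.148). Adarb2 was higher by 4.97 ± 0.452, and none of 7 tested extracellular partners was called.

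CA3-like nuclei, from the field that receives mossy fibres, were compared with CA1-like nuclei. Gria4 stood at 298, 257 and 244 CPM in CA3-like and 174, 117 and 111 CPM in CA1-like nuclei, without overlap. Its log2 fold change of 0.97 ± 0.111 (edgeR adjusted p = 0.00182) stayed under the fold minimum, and it was called without mouse 1 (1.09, adjusted p = 0.00464) and in nuclei thinned to 1000 UMIs (1.15, adjusted p = 7.69e-05), with adjusted p of 2.36e-08 to 0.297 over the alternatives. Gria3 was at 785, 728 and 590 against 1050, 983 and 1069 CPM, a difference of -0.61 ± 0.120 (edgeR adjusted p = 0.0148). None of the 5 genes was called by edgeR, and 2 had an unadjusted p under 0.05, the same 2 that passed after adjustment; DESeq2 also called 0. Across all 14903 genes tested 10.4% were called. Gria1 (-0.22 ± 0.122), Gria2 (0.23 ± 0.107) and Grid1 (-0.15 ± 0.0972) had edgeR adjusted p of 0.286, 0.210 and 0.368.

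Partner genes were called in both directions between the CA fields. Cacng2, which encodes stargazin, had a CA3-like excess of 1.64 ± 0.102, and Cacng3 (-1.30 ± 0.122), the cornichon gene Cnih3 (-1.29 ± 0.153) and Gsg1l (-1.11 ± 0.260) were lower, among 13 tested auxiliary genes. Grip1 (1.15 ± 0.141) was the 1 of 15 scaffold and trafficking genes called, and Nptx1 (1.56 ± 0.226) the 1 of 6 extracellular partners. Adarb1, the Gria2-editing enzyme, was higher in CA3-like nuclei at 161 against 61.7 CPM, a log2 fold change of 1.39 ± 0.148 (edgeR adjusted p = 0.00141, higher in 3 of 3 mice). This is the level of the enzyme's RNA, and editing itself was not measured.

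Interneuron classes were compared by setting Pvalb- or Sst-like nuclei, which derive from the medial ganglionic eminence, against Lamp5-, Vip- or Cnr1-like nuclei. Gria3 was the gene that stood out, with 1293, 1148 and 894 CPM against 209, 329 and 232 CPM in mice 1, 2 and 3. The groups did not overlap, the log2 fold change was 2.12 ± 0.157 (edgeR adjusted p = 1.65e-06), and the call held under all 10 alternatives run, with fold changes of 1.79 to 2.62. Gria4 was at 1944, 1352 and 1431 against 1162, 1034 and 1122 CPM, a difference of 0.49 ± 0.120 (edgeR adjusted p = 0.0136). Grid1 went the other way at -0.55 ± 0.120 (edgeR adjusted p = 0.00586), with 306, 336 and 396 against 499, 450 and 561 CPM. Both passed the p threshold without overlap between groups, and both stayed under the fold minimum. Gria1 (0.27 ± 0.115) and Gria2 (0.11 ± 0.112) had edgeR adjusted p of 0.15 and 0.611. Of the 5 genes 1 was called, against 8.96% of 12056 genes. The first group was mostly Pvalb-like in mouse 2 (182 of 200 nuclei) and mostly Sst-like in mouse 3 (118 of 122).

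Within the second group the classes were not alike. Lamp5-like nuclei held 2878 ± 328 CPM of Gria1 and Vip-like nuclei 655 ± 22.0 CPM (SD, n = 3 each), without overlap, although the Lamp5-like mean was 1787 CPM with each library clustered alone, and Vip-like nuclei held more Grid1, with 619, 611 and 895 against 351, 284 and 345 CPM in Lamp5-like nuclei. Among 14 tested auxiliary genes Gsg1l (2.08 ± 0.233) was higher in Pvalb- or Sst-like nuclei, and Cacng4 (-2.32 ± 0.210), Cacng5 (-1.93 ± 0.402) and Shisa9 (-1.21 ± 0.143) were lower. Of the 8 tested extracellular partners Cbln4 (1.85 ± 0.544) was called higher, though in 2 of 3 mice, and Cbln2 (-2.74 ± 0.484) lower. None of 15 scaffold and trafficking genes was called, and Adarb2 was lower, with a log2 fold change of -5.72 ± 0.346. Adarb2 is itself a widely used marker of such interneurons and took no part in the clustering.

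Levels in glia-like nuclei are given alongside those of the glutamatergic marker genes in the same nuclei. Summed over the 10 glutamatergic markers, the level was 19.7%, 54.5% and 20.1% of that in glutamatergic-like nuclei in oligodendrocyte-like nuclei of mice 1, 2 and 3, at 24.5%, 60.8% and 16.8% in astrocyte-like, at 31.2%, 63.6% and 30.0% in microglia-like and at 28.7%, 59.8% and 25.0% in OPC-like nuclei. Gria1 in oligodendrocyte-like nuclei was at 13%, 50.7% and 12.8% of its own glutamatergic-like level, below the markers in all 3 mice. The same held for Gria1 in microglia-like nuclei and for Gria3 in oligodendrocyte-, astrocyte- and microglia-like nuclei, in 3 of 3 mice each. The part of carried-over neuronal RNA in those levels was not tested. Without mouse 2 the mean Gria1 level was 511 in place of 801 CPM in OPC-like, 261 in place of 574 CPM in oligodendrocyte-like and 308 in place of 698 CPM in astrocyte-like nuclei. Gria2 in astrocyte-like nuclei, at 69.7%, 80.0% and 58.2%, Grid1 there, at 80.9%, 78.4% and 64.1%, and Gria4 in oligodendrocyte-like nuclei, at 121%, 136% and 41.1%, exceeded the glutamatergic markers in all 3 mice.

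OPC-like nuclei exceeded the glutamatergic markers for 4 of the 5 genes. Gria2 was at 89.6%, 91.9% and 121% of its glutamatergic-like level, Gria3 at 63.7%, 86.5% and 75.8%, Gria4 at 249%, 192% and 142% and Grid1 at 218%, 184% and 186%. Each of these exceeded the markers in 3 of 3 mice. Gria1, at 15.0%, 58.4% and 35.6%, did so in 1 of 3.

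Gria4, the gene with the highest inhibitory-like level relative to glutamatergic-like nuclei, was also set beside the 7 inhibitory markers. In OPC-like nuclei it stood at 53.6%, 51.3% and 43.1% of its inhibitory-like level, where the marker sum stood at 43.3%, 40.2% and 55.0%, so that it exceeded the sum in 2 of 3 mice. In oligodendrocyte-like nuclei it was at 26.0%, 36.4% and 12.5%, beside a marker sum of 24.2%, 26.3% and 22.9%, again higher in 2 of 3. Most of that sum was 1 gene, the neuregulin receptor gene Erbb4, with 3087, 1795 and 4240 of 3210, 1909 and 4371 CPM in OPC-like nuclei and 1733, 1152 and 1745 of 1793, 1251 and 1820 CPM in oligodendrocyte-like nuclei. The other 6 markers, separated from Erbb4 after these values had been seen, summed to 9.69%, 13.4% and 5.75% in OPC-like and 4.69%, 11.8% and 3.31% in oligodendrocyte-like nuclei, below Gria4 in all 3 mice of both classes. Singly they varied: in OPC-like nuclei Gad1 stood at 28.6%, 22.2% and 11.25% of its inhibitory-like level and Slc32a1 at 13.7%, 30.9% and 4.63%. Gad2 was at 3.18%, 8.62% and 2.23% there and Dlx6os1 at 0.645%, 7.14% and 1.24%. Dlx1 had 0, 3 and 0 UMIs in OPC-like nuclei of mice 1, 2 and 3, and Dlx6 had 0, 1 and 1. The part of inhibitory neuron RNA in these Gria4 levels was not tested.

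**Figure D3:**
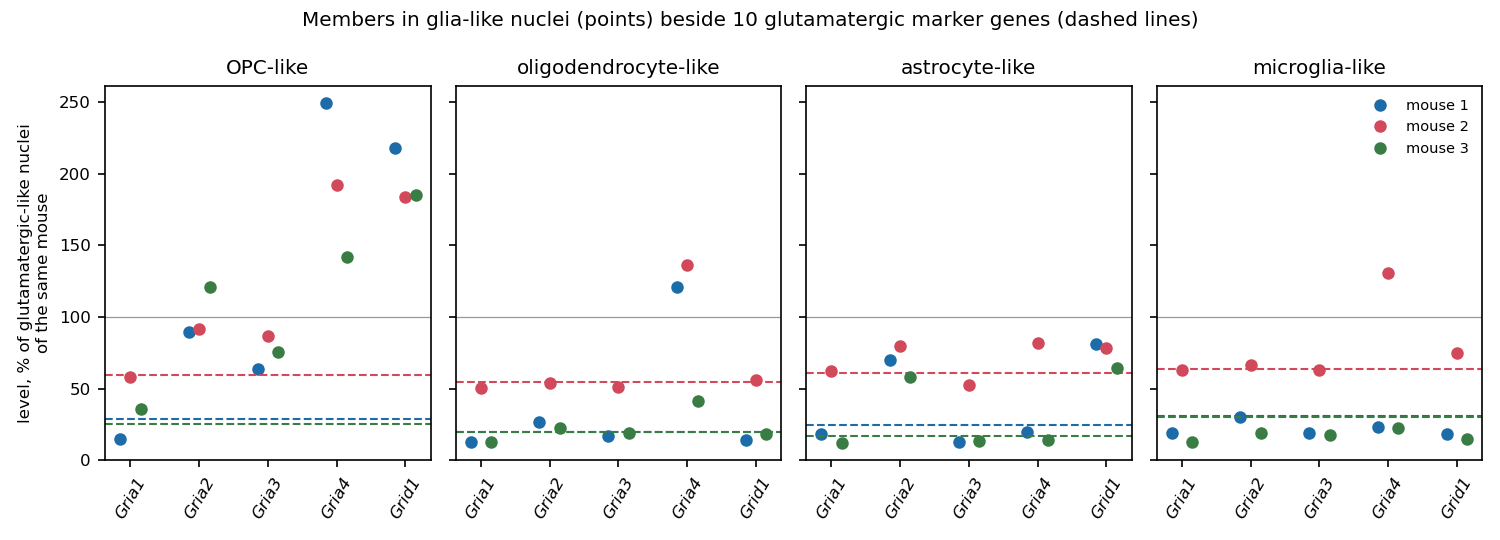
Level of each gene in 4 glia-like classes as a percent of its level in glutamatergic-like nuclei of the same mouse (points), with the summed level of 10 glutamatergic marker genes on the same scale as a dashed line per mouse. Gria2, Gria3, Gria4 and Grid1 of OPC-like nuclei lie above the line of their mouse in all 3 mice, while Gria1 and Gria3 of oligodendrocyte- and microglia-like nuclei lie below it.

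Set against mature oligodendrocyte-like nuclei, OPC-like nuclei had higher Grid1, at 872, 705 and 961 against 56.0, 214 and 96.2 CPM. The groups did not overlap, and the log2 fold change was 2.99 ± 0.502 (edgeR adjusted p = 0.0178). Without mouse 3 the adjusted p was 0.128, the highest over the alternatives, the lowest being 1.71e-09, and 0 of all genes tested were then called. Gria3 was at 603, 695 and 559 against 159, 411 and 141 CPM (1.53 ± 0.332, edgeR adjusted p = 0.0325). Its adjusted p over the alternatives was 0.000296 to 0.199: the call ended without mouse 1 (0.128), without mouse 3 (0.199), without the mouse block (0.0806) and with called doublets kept (0.0659). Gria2, at 1739, 1852 and 2885 against 513, 1080 and 535 CPM, just missed the threshold with 1.63 ± 0.422 (edgeR adjusted p = 0.0512), and was called without mouse 2 (2.07, adjusted p = 0.00135), by DESeq2, with RLE scaling, without a filter, in thinned nuclei and with all classes in one fit. Its adjusted p over the alternatives was 0.000363 to 0.290. Gria4 (1.08 ± 0.322, edgeR adjusted p = 0.0747) and Gria1 (0.59 ± 0.35, edgeR adjusted p = 0.30) were not called, though Gria4 was called without mouse 2 (1.38, adjusted p = 0.00596), by DESeq2 (0.0195) and without a filter (0.0441). Of the 5 genes 2 were called, against 16.3% of 12226 genes. All 5 were higher in OPC-like nuclei of 3 of 3 mice, and the share of all genes with that pattern was not computed. The median log2 fold change was 1.53 over the 5 genes and -0.03 over all genes tested.

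The comparison with astrocyte-like nuclei gave 3 calls of 5, against 13.8% of 10281 genes, with 42 to 119 astrocyte-like nuclei per mouse. Gria4 was at 954, 553 and 689 against 76.4, 236 and 68.6 CPM (2.75 ± 0.465, edgeR adjusted p = 0.00375). Gria3 was at 603, 695 and 559 against 121, 425 and 101 CPM (1.86 ± 0.381, adjusted p = 0.00967). Grid1 was at 872, 705 and 961 against 323, 301 and 332 CPM (1.44 ± 0.268, adjusted p = 0.00600). None of these groups overlapped. All 3 calls ended without mouse 3, at adjusted p of 0.105, 0.177 and 0.102, and that of Gria3 also without the mouse block (0.145) and, at a fold change of 0.94, with called doublets kept. The adjusted p of these genes over the alternatives ran from 5.66e-14, 2.07e-07 and 5.32e-05 up to those values. Gria2 (0.58 ± 0.309) and Gria1 (0.42 ± 0.382) did not pass, at edgeR adjusted p of 0.271 and 0.549.

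Against glutamatergic-like nuclei, OPC-like nuclei had less Gria1, at 299, 1381 and 724 against 1998, 2367 and 2033 CPM, without overlap. The log2 fold change was -1.94 ± 0.455 (edgeR adjusted p = 0.0276), with adjusted p of 1.38e-07 to 0.229 over the alternatives. This call ended without mouse 1 (0.229), without mouse 3 (0.126), without the mouse block (0.0645) and with each library clustered alone (0.0510). The other 4 genes were not called: Gria2 (-0.28 ± 0.324), Gria3 (-0.70 ± 0.275), Gria4 (0.65 ± 0.306) and Grid1 (0.69 ± 0.266) had edgeR adjusted p of 0.581, 0.118, 0.179 and 0.112. Gria4 and Grid1 were nonetheless higher in OPC-like nuclei of 3 of 3 mice. Of the 5 genes 1 was called, where 17.6% of 15827 genes were. The log2 ratio of Gria1 to Gria2 was -1.65 ± 1.10 in OPC-like and 0.02 ± 0.230 in glutamatergic-like nuclei (SD, n = 3 each), lower in all 3 mice (exact permutation p = 0.25, the smallest possible).

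Some partner genes were also called between OPC-like nuclei and the other classes. Over all genes tested, 16.3%, 13.8% and 17.6% were called against oligodendrocyte-, astrocyte- and glutamatergic-like nuclei. Without mouse 3 no gene was called against oligodendrocyte-like nuclei, so the partner calls of that comparison ended too. Cacng4, which encodes the TARP gamma-4, was at 429 CPM against 3.02 CPM in oligodendrocyte-like, 9.57 CPM in astrocyte-like and 1.57 CPM in glutamatergic-like nuclei, with log2 fold changes of 7.27 ± 0.868, 5.47 ± 0.398 and 7.86 ± 0.563. Adarb2 was higher in OPC-like nuclei in all 3 comparisons (3.27 ± 0.607, 3.72 ± 0.703 and 2.08 ± 0.297). Of 15 auxiliary genes 2 were higher and 7 lower than in glutamatergic-like nuclei, the lower ones including Cacng3 (-2.27 ± 0.410) and the AMPA-binding Shisa6 (-1.46 ± 0.283) and Syndig1 (-1.57 ± 0.291). Of 15 scaffold and trafficking genes 1 was lower there, the membrane fusion gene Nsf (-1.33 ± 0.311), and of 8 extracellular partners Nptx1 (-1.23 ± 0.308) and Nptx2 (-1.79 ± 0.480) were lower. Against oligodendrocyte-like nuclei the lower genes were Prrt1 (-1.40 ± 0.322) of the auxiliary list and Dlg1 (-1.17 ± 0.242) of the scaffold list. Against astrocyte-like nuclei Shisa7 (1.69 ± 0.398) and Cpt1c (1.08 ± 0.267), a gene of receptor assembly, were also higher. None of 6 tested extracellular partners was called in either of these last comparisons.

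Neuron-like against glia-like nuclei was the broadest comparison. Gria1 was at 2107, 2393 and 2104 against 293, 1374 and 356 CPM (2.48 ± 0.646, edgeR adjusted p = 0.0484), and Gria3 at 931, 791 and 736 against 227, 491 and 219 CPM (1.88 ± 0.434, edgeR adjusted p = 0.0400). Neither overlapped, and mouse 2 had by far the highest glia-like value of both. Without mouse 2 the glia-like mean of Gria1 was 325 CPM in place of 674, all 5 genes were called and the log2 fold change of Gria1 was 3.21. Without mouse 1 or mouse 3 none of the 5 was called, nor any of all genes tested. Both calls also ended in thinned nuclei (0.0581 and 0.0501) and with libraries clustered alone (0.0587 and 0.0501), and that of Gria1 without the mouse block (0.0565). Over the alternatives the adjusted p ran from 1.42e-08 to 0.30 for Gria1 and from 4.06e-07 to 0.233 for Gria3. Gria2 (1.32 ± 0.417), Gria4 (0.95 ± 0.380) and Grid1 (1.11 ± 0.297) had edgeR adjusted p of 0.0702, 0.117 and 0.0510. Besides the calls without mouse 2, DESeq2 called Gria2 and Grid1, RLE scaling and no filter added Grid1, and one fit of all classes added Gria4 and Grid1. Of the 5 genes 2 were called, against 24.2% of 17467 genes.

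In the same comparison 6 of 15 auxiliary genes were called higher in neuron-like nuclei, among them Shisa7 (1.68 ± 0.308) and Cacng8 (1.89 ± 0.413), a TARP gene typical of hippocampal pyramidal cells, and Cacng4 was lower (-3.24 ± 0.369). Grip2 (2.26 ± 0.395), Grip1 (2.32 ± 0.509) and Dlg4 (1.14 ± 0.278), the gene of the scaffold PSD-95, were higher among 15 scaffold and trafficking genes. Adar (1.18 ± 0.256), 1 of 3 editing enzymes, and Cbln4 (1.47 ± 0.349), 1 of 8 extracellular partners, were also higher. Without mouse 1 or mouse 3 no gene was called in this comparison, so these partner calls ended too.

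**Figure D4:**
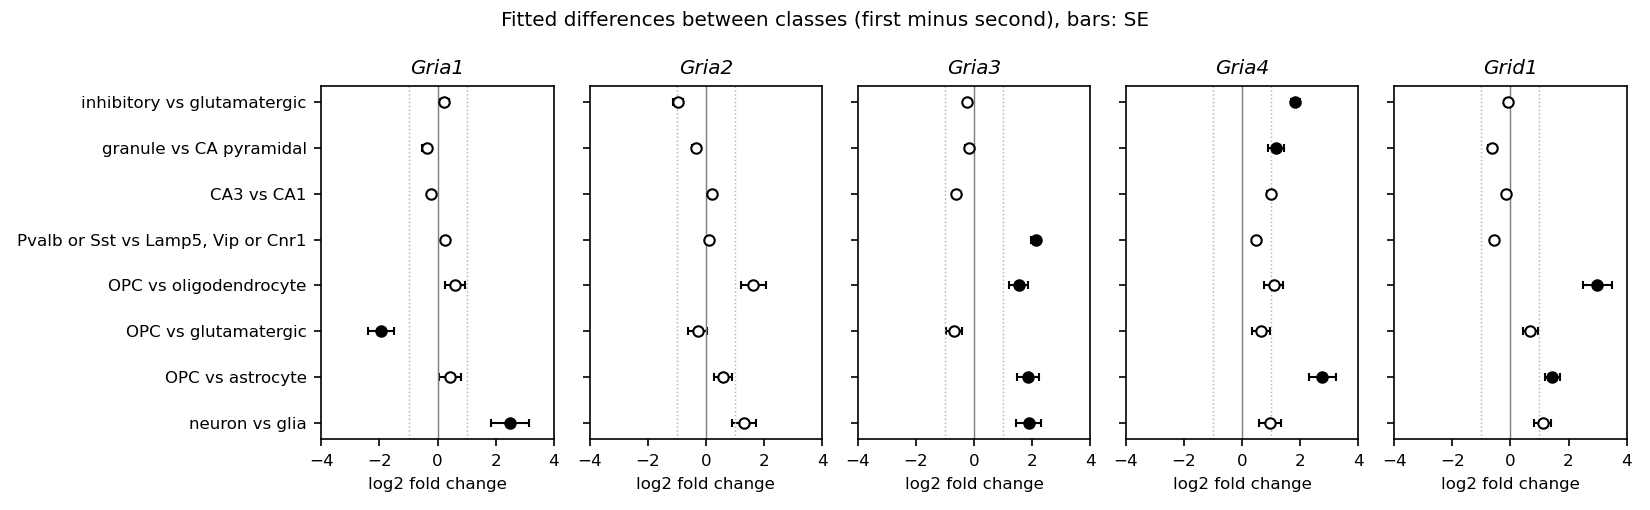
Fitted log2 fold change of each gene (x axes, first class minus second) in the 8 comparisons (rows), with bars of 1 SE; filled points passed both the adjusted p of 0.05 and the fold minimum of 1 on the log2 scale (dotted lines). Gria4 is filled for inhibitory-like against glutamatergic-like nuclei at 1.83, Gria3 for Pvalb- or Sst-like nuclei at 2.12, and Grid1 for OPC-like against oligodendrocyte-like nuclei at 2.99.

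**Figure D5:**
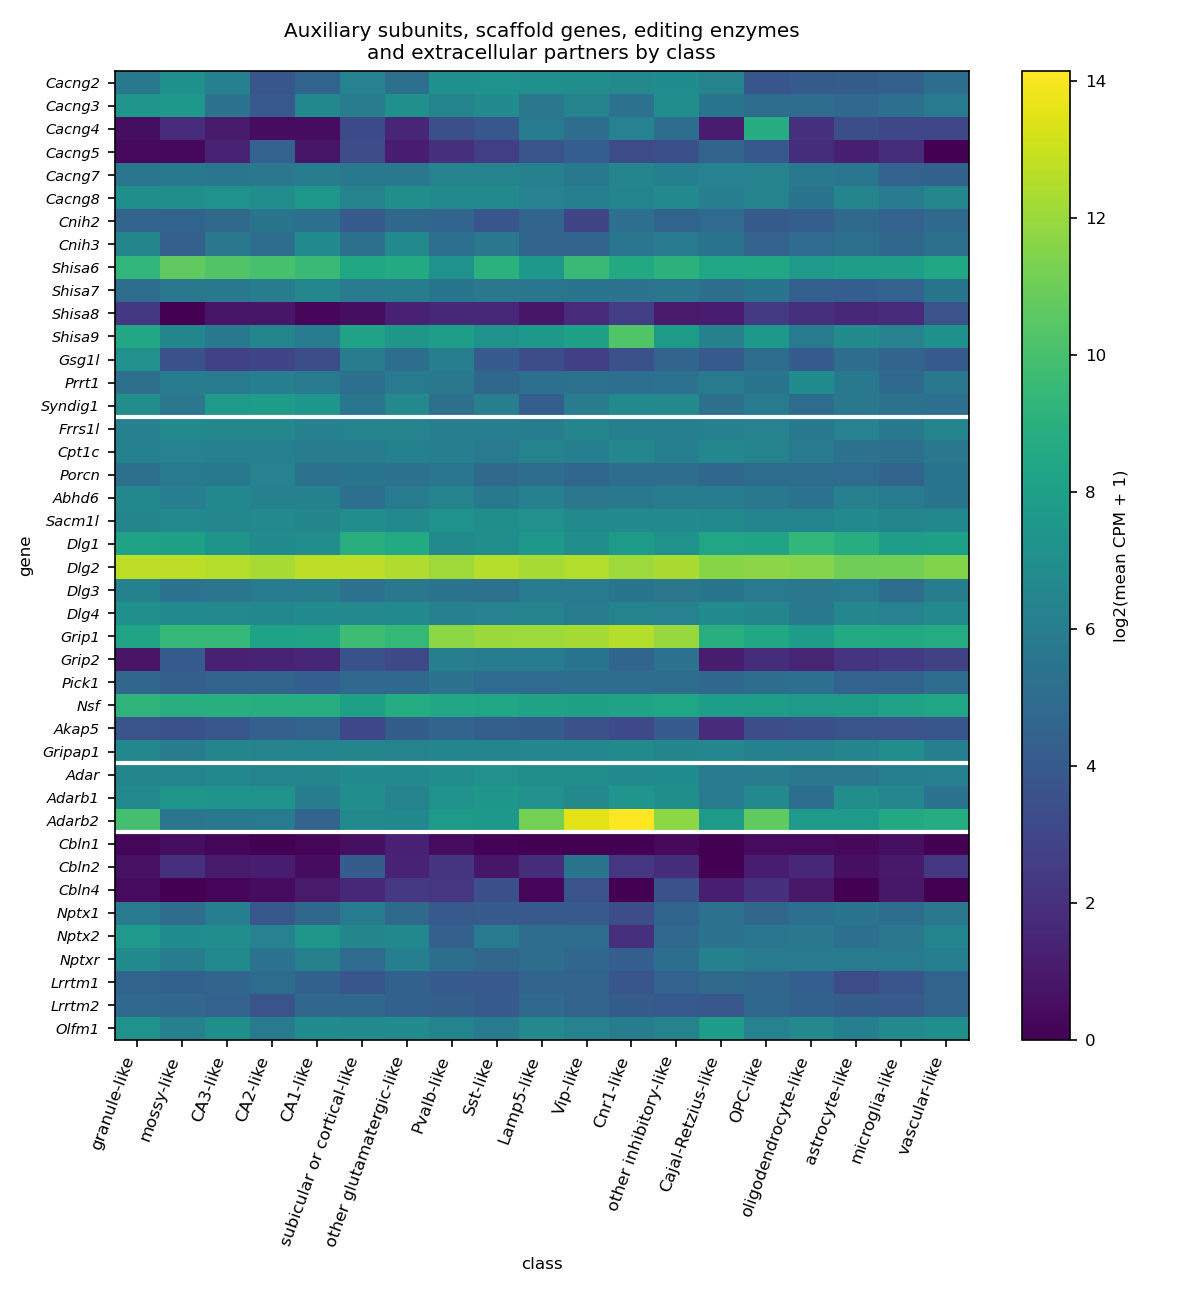
Level of the partner genes of 4 lists (rows, lists separated by white lines) by class (columns), as log2 of the mean CPM over mice plus 1 (colour). Cacng4 stands out in OPC-like nuclei at 429 CPM, Grip1 is high in the inhibitory-like classes, and Adarb2 peaks in Vip- and Cnr1-like nuclei.

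The share of nuclei with a UMI was compared after each nucleus had been thinned to 1000 UMIs, shallower nuclei being left out. A Gria4 UMI was present in 73.4%, 55.6% and 72.2% of inhibitory-like nuclei of mice 1, 2 and 3 and in 28.2%, 25.3% and 32.8% of glutamatergic-like nuclei. Microglia-like nuclei, given for comparison, had one in 6.79%, 28.6% and 13.8%. How much of their Gria4 RNA was carried over was not tested. The 10 microglia markers summed to 9004, 2661 and 8059 CPM in microglia-like nuclei of mice 1, 2 and 3, lowest in mouse 2. In mouse 2 glutamatergic-like nuclei lay below the microglia-like share, while inhibitory-like nuclei stayed above it in every mouse. Unthinned, the inhibitory-like shares were 99.6%, 79.1% and 99.6%, at median depths of 13374, 2504 and 36832 UMIs. Median depths of microglia-like nuclei were 2464, 1341 and 6401 UMIs.

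Grid1 UMIs were found in 54.6%, 49.3% and 62.6% of thinned OPC-like nuclei and in 4.91%, 18.2% and 7.64% of oligodendrocyte-like nuclei. The microglia-like share of 4.24%, 19.7% and 9.74% lay close to the latter. Exact 95% intervals for the OPC-like shares were 47.9% to 61.2%, 43.3% to 55.3% and 53.4% to 71.2%, and they cover counting error only. In mouse 2 thinning left out 98 of 376 OPC-like and 417 of 1358 oligodendrocyte-like nuclei, and in mouse 1 it left out 0 and 6.

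Across the 19 classes, the genes whose mean log2 level followed each receptor gene most closely were listed among 14196 genes as a description. Gria1 ran most closely with Dlgap2, a postsynaptic scaffold gene (Pearson r = 0.92), Dgkg (0.87) and Gm10419 (0.87). For Gria2 these were Gm47591 (0.88), Frrs1l (0.84), which encodes an AMPA receptor assembly factor and is in the assembly list, and Rnf165 (0.84). The Gria3 pattern was closest to Fam135b (0.90), Gm41609 (0.88) and Kcnma1 (0.87), that of Gria4 to Tmem145 (0.85), Cit (0.85) and Gm46102 (0.84), and that of Grid1 to Elfn2 (0.81), Gm11417 (0.81) and Ccdc39 (0.81). Among the receptor genes themselves r was 0.70 for Gria1 with Gria3, 0.57 for Gria2 with Grid1 and -0.18 for Gria2 with Gria4. All classes share the 3 libraries and their depth, so the classes are not independent points.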

How the data were processed

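Single-nucleus 3′ RNA libraries of the 10x Genomics platform were deposited as UMI count matrices, 1 per mouse, counted, per the file headers, by Cell Ranger 7.0.0 (mice 1 and 2) or 7.1.0 (mouse 3). The submitters' processing notes name mm10 as the build, and the handling of introns in counting is not given in the sources read. Barcodes entered the analysis from 500 detected genes upward if mitochondrial UMIs made up no more than 5%, and doublets called by Scrublet were removed. The automatic doublet threshold called 0 nuclei in mouse 2, so that the expected rate of 0.8% per 1000 nuclei was used there after this had been seen; 732, 1445 and 265 nuclei were removed in mice 1, 2 and 3.

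Nuclei were clustered with scanpy 1.11.5 (3000 variable genes without the receptor and partner genes, 30 components, 20 neighbours, Leiden resolution 1.5). Glia-, vascular-, Cajal-Retzius- and inhibitory-like clusters were named where at least 3 markers were 2-fold higher than elsewhere. Glutamatergic-like clusters needed at least 4 of the 10 glutamatergic markers 2-fold above the clusters already named, or subtype markers. Neuronal subtypes needed 3 markers of their own, a mean log2 fold of 0.5 and a lead of 0.25 over the next subtype. Those that failed became other glutamatergic-like, other inhibitory-like or unnamed. Depth and leading genes set further limits. These naming rules were revised in 3 rounds after clusters had been seen and before receptor levels were computed. The receptor genes, the partner lists (auxiliary subunits, assembly and scaffold, editing enzymes and extracellular partners, beside a gene not reported here) and the comparisons were chosen with earlier results of these data known.

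UMI counts were summed per mouse and class. Class pairs were tested with edgeR 4.0.16 (TMM, filterByExpr, quasi-likelihood test, mouse as block) in R 4.3.3, and p-values were adjusted across the whole gene table by the Benjamini-Hochberg method. Genes were called at an adjusted p under 0.05 if the log2 fold change also reached 1 in either direction. Same-numbered sums come from 1 animal, and their deviations correlated by 0.107 to 0.762. Fitted fold changes include TMM scaling and differ from ratios of mean CPM. Shares of all genes without overlap between groups, or higher in every mouse, were not computed. With mouse as block, the edgeR p-values set the difference between classes against how far that difference varied over these 3 mice. Their dispersions borrow from all genes tested. The script was tested on simulated data. Partner genes were named if called, at most the 3 with the smallest adjusted p per list, direction and comparison. Their calls are from the main fit, and single partner genes were not followed through the alternatives. Adarb1 between neuronal classes was named after its values had been seen. Similar patterns were sought over 19 classes by Pearson correlation of log2(CPM + 1), with at least 10 CPM in 1 class. Gene positions and sequences come from GENCODE vM21, in which 32235 of 32285 identifiers were found, and gene span sets the per 100 kb scale. Alternatives were DESeq2 1.42.0, RLE scaling, no filter, no block, each mouse left out, thinned nuclei, doublets kept, libraries clustered alone and all classes in one fit. Exact binomial intervals are at 95%.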

Additional observations from a re-analysis of the deposited data

Results flagged for a closer look

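Nuclei that received no class name entered no comparison, and all 5 genes were detected in them in every mouse. Their number was 313, 3900 and 23 in mice 1, 2 and 3, and 3 counts correspond to 7.51, 0.276 and 13.4 CPM. Gria1 stood at 1287, 2083 and 1607 CPM, and Gria2 at 2104, 1763 and 2279 CPM. The Gria3 level was 491, 713 and 134 CPM, that of Gria4 248, 319 and 663 CPM, and that of Grid1 323, 326 and 430 CPM. In mouse 2 these nuclei fell mainly into a cluster of 1898 with a median of 860 UMIs per nucleus, a cluster of 866 led by Malat1 and a cluster of 1047 with Slc30a3 among its leading genes.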

How the results depend on the processing

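Among the 5 genes, the number called for inhibitory-like against glutamatergic-like nuclei was 1, and 2 without a filter, 2 with libraries clustered alone, 3 with all classes in one fit and 1 to 2 when a mouse was left out. For granule-like against pyramidal nuclei it was 1, and 0 with no replicate block and 0 to 1 with a mouse left out. For CA3-like against CA1-like nuclei it was 0, and 1 in thinned nuclei and 0 to 1 with a mouse left out. For Pvalb- or Sst-like nuclei it was 1 throughout; with libraries clustered alone fewer than 2 mice were left, and no value was given. For OPC-like against oligodendrocyte-like nuclei it was 2, and 4 with DESeq2, 4 without a filter, 1 with no replicate block, 1 with doublets kept and 0 to 4 with a mouse left out. Against glutamatergic-like nuclei it was 1, and 0 with no replicate block, 0 with libraries clustered alone and 0 to 1 with a mouse left out, and against astrocyte-like nuclei 3, and 0 to 3 with a mouse left out. For neuron-like against glia-like nuclei it was 2, and 4 with DESeq2, 4 with all classes in one fit, 1 with no replicate block, 0 in thinned nuclei, 0 with libraries clustered alone and 0 to 5 with a mouse left out. Some settings that moved a main count of 2 or 3 by 1 gene are not listed here. Those calls are given in the results. Signs turned, in no case for a called gene, for inhibitory-like against glutamatergic-like nuclei with Grid1 (0.0249 thinned, 0.16 clustered alone, -0.11 to 0.00 with a mouse left out, 0.00497 without mouse 3) and Gria1 (-0.0224 clustered alone, -0.34 in one fit), for granule-like nuclei with Gria3 (0.00667 in one fit) and for OPC-like against astrocyte-like nuclei with Gria1 (-0.15 to 0.72 with a mouse left out). The causes were not tested. The block changed no other call of the 5 genes beyond those given here and in the results.

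Counts over all genes, in the order of comparisons above, were 2409, 3102, 1557, 1080, 1992, 2783, 1415 and 4233, and in thinned nuclei 1089, 1236, 463, 232, 1117, 1255, 363 and 2491. With no replicate block they were 1237, 1851, 457 and 462 in the first 4 and 674 for OPC-like against astrocyte-like nuclei, which had 2167 without a filter. One fit for all classes gave 1014 for CA3-like and 710 for Pvalb- or Sst-like nuclei. With a mouse left out they ran from 341 (without mouse 1; 1582 without mouse 3) to 2806 for inhibitory-like nuclei, from 0 (without mouse 3; 801 without mouse 1) to 3404, from 706 (without mouse 3; 1223 without mouse 1) to 4327 and from 375 (without mouse 3) to 2318 for OPC-like against oligodendrocyte-, glutamatergic- and astrocyte-like nuclei, and from 0 (without mouse 1 or 3) to 6537 for neuron-like nuclei, each highest without mouse 2. Of 95 class levels 13 moved over 1.5-fold without mouse 2, 12 of them in glia-like classes, and 9 with doublets kept, of which 2 were Cnr1-like (Gria3 and Gria4, 1233 in place of 669 CPM). With libraries clustered alone 4 of 75 did, the Lamp5-like levels of Gria1 (1787 CPM) and Gria3 (538 CPM) and the Gria3 levels of other inhibitory-like (393 CPM) and Cajal-Retzius-like nuclei (110 in place of 367 CPM). Median depth in mouse 2 was 1711 UMIs per barcode.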
